A study of Homo sapiens with 6 samples.

Results

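Collagen and laminin chains were described in 6 sequenced RNA libraries, all from neuroblastoma lines of human origin. The members were all rows of the count table whose symbol names a collagen chain (COL, a type number, A and a chain number) or a laminin alpha, beta or gamma chain (LAMA, LAMB or LAMC with a number). This gave 56 genes of 25370 rows, with 44 collagen and 12 laminin chains. BE2C and Kelly are established neuroblastoma lines with MYCN amplification. The groups were BE2C made to express LMO1, a LIM-only transcriptional co-regulator (2 libraries), vector-control BE2C cells (2 libraries), parental BE2C without modification (1 library) and Kelly (1 library). The labels name neither the vector and its promoter nor whether the modified cells were clones or pools, and whether replicate libraries stem from separate cultures is not stated.

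Collagens are triple helices of 3 chains, which may be copies of 1 chain or the products of different genes, so the chains of a type have to be made together. Type IV collagen forms the sheet-like network of basement membranes, fibrillar collagens form banded fibres, type VI forms beaded microfilaments, and the fibril-associated collagens with interrupted helices (FACIT collagens) sit on fibre surfaces. Laminins are cross-shaped trimers of 1 alpha, 1 beta and 1 gamma chain, which nucleate basement membranes and bind integrins and dystroglycan. In neuroblastoma tumours much of the fibrillar collagen is made by Schwann and fibroblast stroma, while the tumour cells themselves are known to make laminins and type IV collagen.

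The library totals spanned 18737591 to 59512958 counts. LMO1 was at 6.55 and 5.85 CPM (counts relative to the library's total, here scaled by TMM, a method that corrects totals for differences in composition) in the LMO1 libraries, 1.05 and 0.926 CPM with vector, 1.93 CPM in parental cells and 94.1 CPM in Kelly. The neuroblastoma markers fixed for the check, HAND2, GATA3 and TH among them, reached 1 CPM in at least 1 library, 12 of 12. With LMO1, 5 of these were called higher, DBH (log2 2.57) and TH (1.84) among them, and 4 lower, GATA3 (-0.23) and HAND2 (-0.17) among them. Of the 10 fibroblast markers 6 did, and FAP, TCF21 and TWIST2 had no count in any library. The summed level of the fibroblast markers was 308 and 311 CPM with LMO1, 281 and 292 CPM with vector, 395 CPM in parental cells and 239 CPM in Kelly. THY1 was the largest part in BE2C, at 177 and 184 CPM with LMO1, 159 and 160 CPM with vector and 168 CPM in parental cells. In Kelly THY1 was at 29.4 CPM, and FBN1 (104 CPM) and PDGFRB (98.8 CPM) were the largest parts. DCN was at 102 CPM in parental cells and 0.201 CPM in Kelly. The summed level of the endothelial markers was 4.60 to 7.33 CPM, of the haematopoietic markers 7.23 to 9.66 CPM and of the epithelial markers 1.73 to 2.99 CPM over the libraries. Of these, 4 endothelial markers were tested (1 higher and 2 lower with LMO1). CD68 and LYZ, of the haematopoietic list, and EPCAM and KRT8, of the epithelial list, were tested without a call (edgeR adjusted p = 0.395, 0.866, 0.188 and 0.306). Of the 6 fibroblast markers tested, DCN, LUM and THY1 were called higher with LMO1 (log2 0.84, 1.06 and 0.19) and FBN1 lower (-0.70). Schwann markers summed to 150 and 153 CPM with LMO1, 131 and 125 CPM with vector, 101 CPM in parental cells and 61.9 CPM in Kelly, with PMP22 at 54.4 to 147 CPM, SOX10 at 0.825 to 3.96 CPM and CDH19 at no count, and of 4 tested PMP22 was called higher with LMO1. The part of other cells in the results below was not tested. In bulk RNA, fewer cells of a kind and less RNA per cell cannot be told apart.

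The 3 gene pairs of type IV collagen lie head to head in the genome, each pair transcribed outward from neighbouring starts. The windows around the starts are shown for the pair with the highest counts and for the pair whose partners differed most between lines. Each runs 5′ to 3′ on the strand of its gene, from 250 bases before to 50 bases after the annotated start, and capitals mark the bases that the partner's window also covers on the other strand. The sequences are from RefSeq, build GRCh38.p14, whereas the counts were made on hg19.
COL4A1, chr13:110307108-110307407, minus strand: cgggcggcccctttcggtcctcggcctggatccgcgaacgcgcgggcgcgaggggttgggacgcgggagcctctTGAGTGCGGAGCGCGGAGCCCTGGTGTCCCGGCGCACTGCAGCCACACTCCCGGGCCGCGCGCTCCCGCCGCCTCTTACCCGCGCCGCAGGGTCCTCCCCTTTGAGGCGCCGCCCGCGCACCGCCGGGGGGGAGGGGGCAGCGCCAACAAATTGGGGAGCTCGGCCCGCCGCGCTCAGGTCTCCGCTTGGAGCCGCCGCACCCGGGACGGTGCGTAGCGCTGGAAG
COL4A2, chr13:110307034-110307333, plus strand: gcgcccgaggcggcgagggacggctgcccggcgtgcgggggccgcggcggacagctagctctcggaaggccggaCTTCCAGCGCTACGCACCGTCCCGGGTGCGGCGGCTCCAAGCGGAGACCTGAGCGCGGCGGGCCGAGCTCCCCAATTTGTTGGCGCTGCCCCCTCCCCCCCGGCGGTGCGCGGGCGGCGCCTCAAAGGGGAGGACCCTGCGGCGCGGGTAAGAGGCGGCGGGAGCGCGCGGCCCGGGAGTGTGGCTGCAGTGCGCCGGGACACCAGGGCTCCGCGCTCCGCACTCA
COL4A3, chr2:227164374-227164673, plus strand: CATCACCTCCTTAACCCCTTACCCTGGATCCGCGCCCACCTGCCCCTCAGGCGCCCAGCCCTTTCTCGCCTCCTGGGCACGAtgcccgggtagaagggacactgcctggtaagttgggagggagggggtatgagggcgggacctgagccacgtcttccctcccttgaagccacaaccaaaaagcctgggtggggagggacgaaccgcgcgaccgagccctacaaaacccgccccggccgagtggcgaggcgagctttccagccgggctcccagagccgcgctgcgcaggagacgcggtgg
COL4A4, chr2:227164156-227164455, minus strand: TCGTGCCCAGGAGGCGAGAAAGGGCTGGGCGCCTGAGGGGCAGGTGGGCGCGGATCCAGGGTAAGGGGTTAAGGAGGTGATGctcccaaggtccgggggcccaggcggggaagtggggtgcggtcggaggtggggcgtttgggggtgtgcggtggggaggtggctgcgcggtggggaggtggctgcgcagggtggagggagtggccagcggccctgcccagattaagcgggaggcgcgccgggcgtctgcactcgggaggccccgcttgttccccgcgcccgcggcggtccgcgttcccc

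The COL4A1 and COL4A2 windows shared 226 bases, and their starts were 127 bases apart. The COL4A3 and COL4A4 windows shared 82 bases with starts 419 bases apart, and those of COL4A5 and COL4A6 shared 121 bases with starts 380 bases apart. The motif GGGCGG, searched on both strands as for every motif here, was found 2 times in the COL4A1 window, 1 time in that of COL4A2, 2 times in that of COL4A3 and in none of COL4A4. It was present in 45.0% of 35116 windows of the same length. The motif CCAAT was found 1 time in the COL4A1 and COL4A2 windows each, inside the shared bases, and is in 34.6% of all windows. TATAAA and CACGTG were found in none of the 4 windows (11.5% and 7.26% of all windows hold them), and the wider CANNTG, which includes CACGTG, was found 1 time each in the COL4A3 and COL4A4 windows (68.7%). GC content was 76.7% and 77.7% for COL4A1 and COL4A2, 67.7% and 74.0% for COL4A3 and COL4A4, and 49.3% and 43.7% for COL4A5 and COL4A6, with a median of 58.7% over all windows. Letters matched in a window are a description only.

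Of the 56 chains, 45 reached 1 CPM (here by total count) in at least 1 library. Those were 34 of 44 collagen chains and 11 of 12 laminin chains. The chains just inside were COL11A1 at 1.13, COL4A3 at 1.19 and LAMA2 at 1.25 CPM in their highest library, and those just outside were COL28A1 and LAMB4, both at 0.878 CPM. The other 9 below it were COL6A5 (0.622), COL26A1 (0.493), COL4A6 (0.267), COL15A1 (0.107), COL5A3 (0.101), COL24A1 (0.0822), COL1A2 (0.0798) and COL25A1 (0.0336 CPM), with COL4A5 at 0 in all 6 libraries. The limit that 0 counts allow, taken as 3 counts, was 0.0504 CPM for the deepest and 0.160 CPM for the shallowest library, with counting error alone considered. In every library 25 chains were at 1 CPM or more. The number reaching it in a single library was 34 in each LMO1 library, 32 and 33 with vector, 32 in parental cells and 37 in Kelly.

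**Figure D1:**
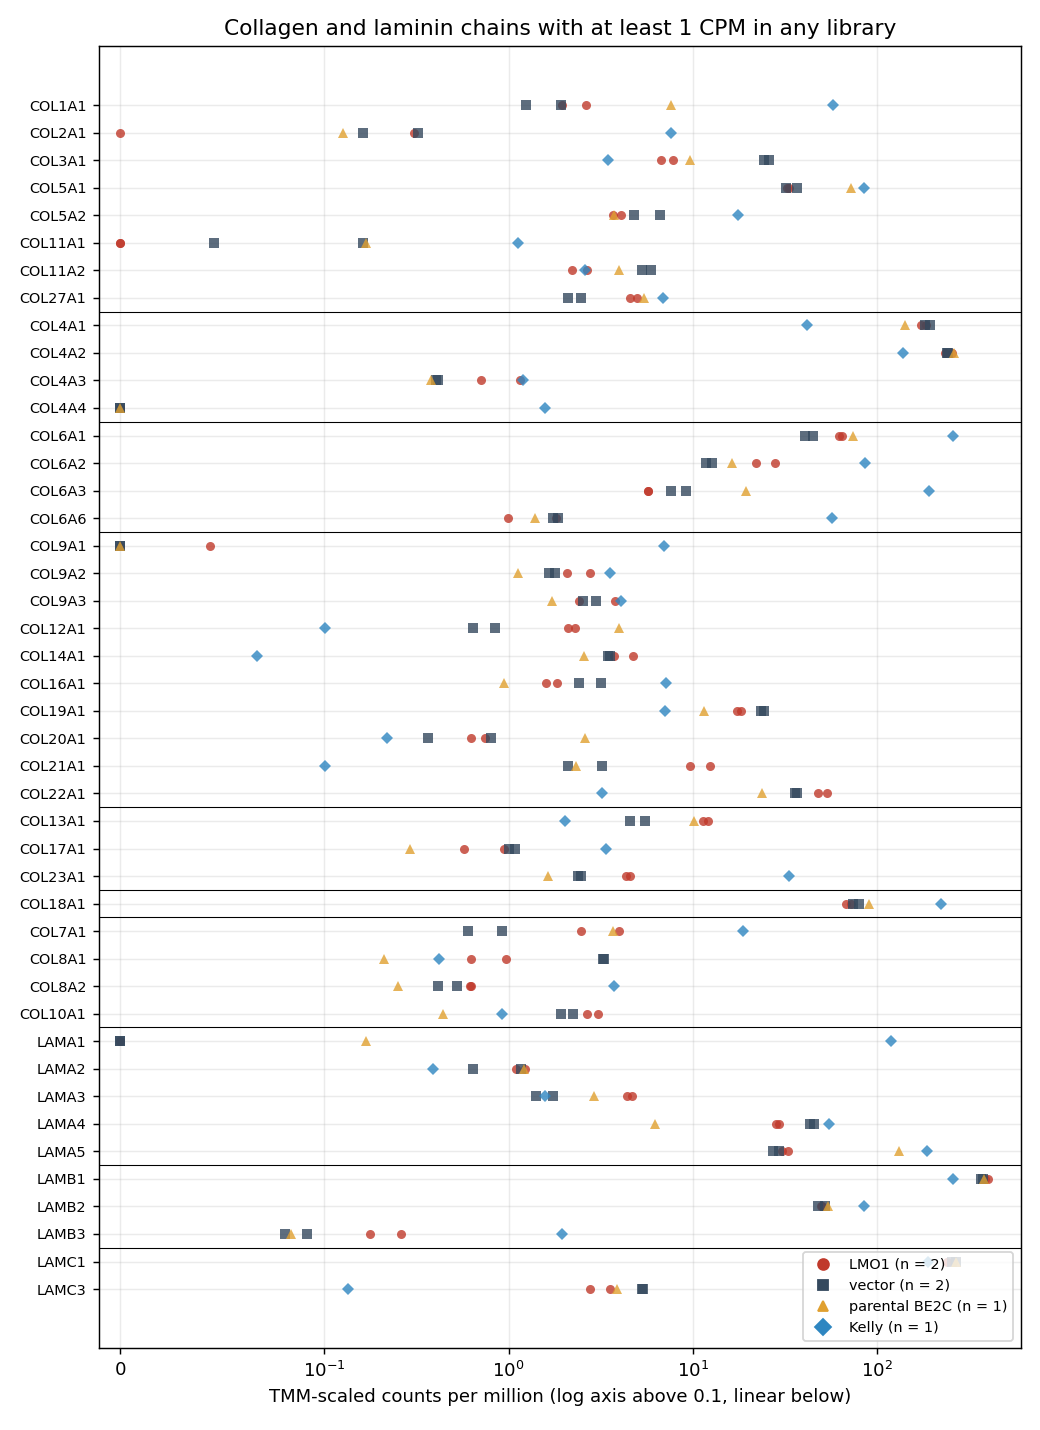
TMM-scaled CPM of 44 of the 45 chains with at least 1 CPM in any library, 1 point per library, on an axis that is logarithmic above 0.1; horizontal lines separate the chain classes. LAMB1, LAMC1, COL4A2 and COL4A1 stand at the right in the BE2C libraries, and LAMA1 is at 120 CPM in Kelly and at 0 in the 4 modified BE2C libraries.

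Levels of different chains were compared as CPM per kilobase of the longest coding transcript. By the mean over the 6 libraries LAMB1 led at 62.6, followed by COL4A2 (35.2), LAMC1 (31.2), COL4A1 (23.2), COL6A1 (21.4), COL18A1 (15.3), LAMB2 (9.96), COL6A2 (8.52), LAMA5 (6.38) and COL5A1 (5.72 CPM per kilobase). The order in Kelly alone was different, with COL6A1 at 60.7, LAMB1 at 44.5, COL18A1 at 33.7, COL6A2 at 24.96, LAMC1 at 23.9, COL4A2 at 21.2 and COL4A1 at 6.30 CPM per kilobase. The place of COL4A2 and the type IV share depend on the length taken for COL4A2. Its ratio to COL4A1 per kilobase was 1.26 to 1.41 in the 4 modified libraries with the longest coding transcript and 0.717 to 0.801 with the union of its exons, a choice added after the data were seen. LAMB1 and LAMC1 encode the most widely used beta and gamma laminin chains, COL18A1 the basement membrane collagen from which endostatin is cut, and COL5A1 a chain of the type V collagen that starts fibres. In the 5 BE2C libraries type IV chains made up 49.1 to 55.4% of the summed collagen CPM per kilobase, against 12.8% in Kelly. Type VI chains made up 11.6 to 19.1% in BE2C and 50.1% in Kelly. The sum over all collagen chains was 120 to 134 CPM per kilobase in BE2C and 218 in Kelly, while the laminin sum was 115 to 123 in BE2C and 121 in Kelly. Laminin alpha chains together were the smallest laminin class in BE2C, at 6.49 to 10.5% of the laminin sum, and were 30.6% of it in Kelly.

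**Figure D2:**
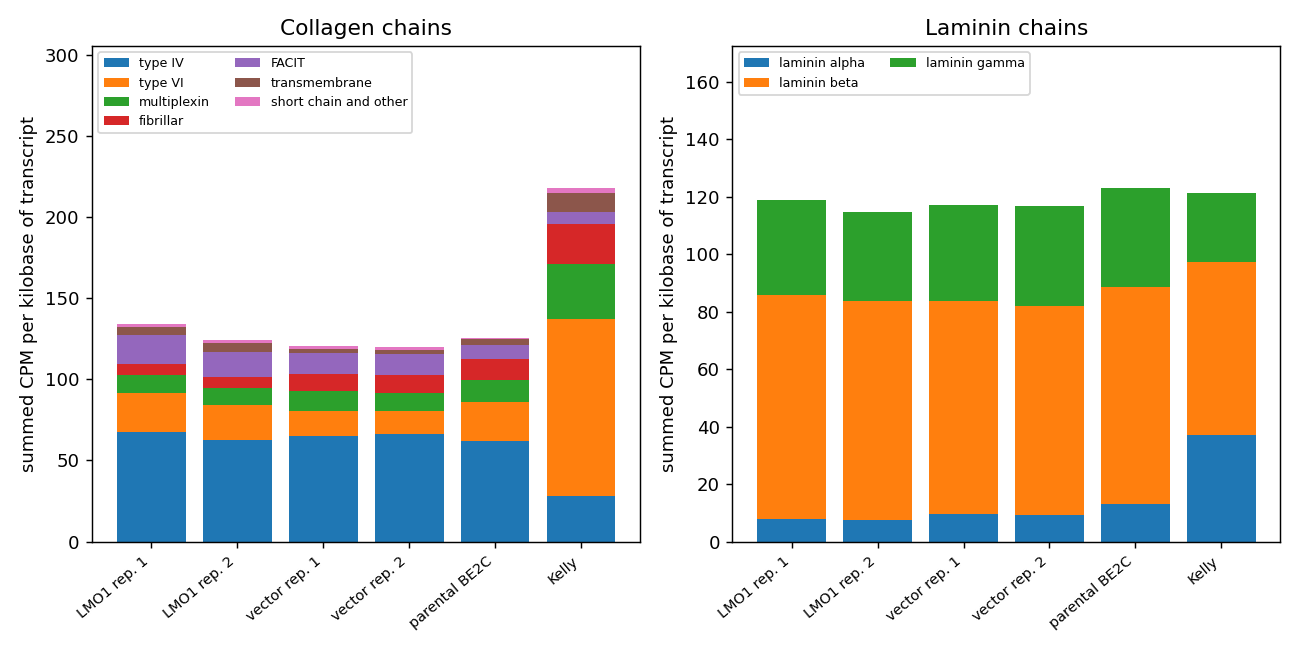
Summed CPM per kilobase of transcript in each library, stacked by collagen class (left) and laminin class (right). Kelly has the tallest collagen bar, 218, with type VI chains at 109, and its laminin bar of 121 lies within the range of the BE2C libraries with a larger alpha segment.

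The comparison of forced LMO1 with vector asked which chains differed when LMO1 was the added gene. It was tested with edgeR's quasi-likelihood test over all 15480 genes that passed a filter on low counts, and a chain was called at a Benjamini-Hochberg adjusted p below 0.05. Of the 56 chains, 41 passed the filter, 31 collagen and 10 laminin chains. With LMO1, 11 chains were higher and 8 lower, so 19 of 41 (46.3%) were called, where 31.0% of all genes tested were called, 15.9% higher and 15.1% lower. By at least 2-fold, 7 chains were higher (4.21% of all genes tested) and 3 lower (0.814%). The median log2 fold change of the 41 chains was 0.16, beside 0.00 over all genes, and the median of its absolute value was 0.49, beside 0.17. The chains were not matched with all genes for level. Their vector means ran from 0.407 CPM (COL4A3, SE of the log2 value 0.534) to 372 CPM (LAMB1, SE 0.0303). In all 19 called chains the groups did not overlap, so both libraries of the higher group lay above both of the other. The same held for 29 of the 41 tested chains and for 63.7% of all genes tested. The filter lets through a chain that is high in only 1 group, so these counts describe the chains that passed.

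**Figure D3:**
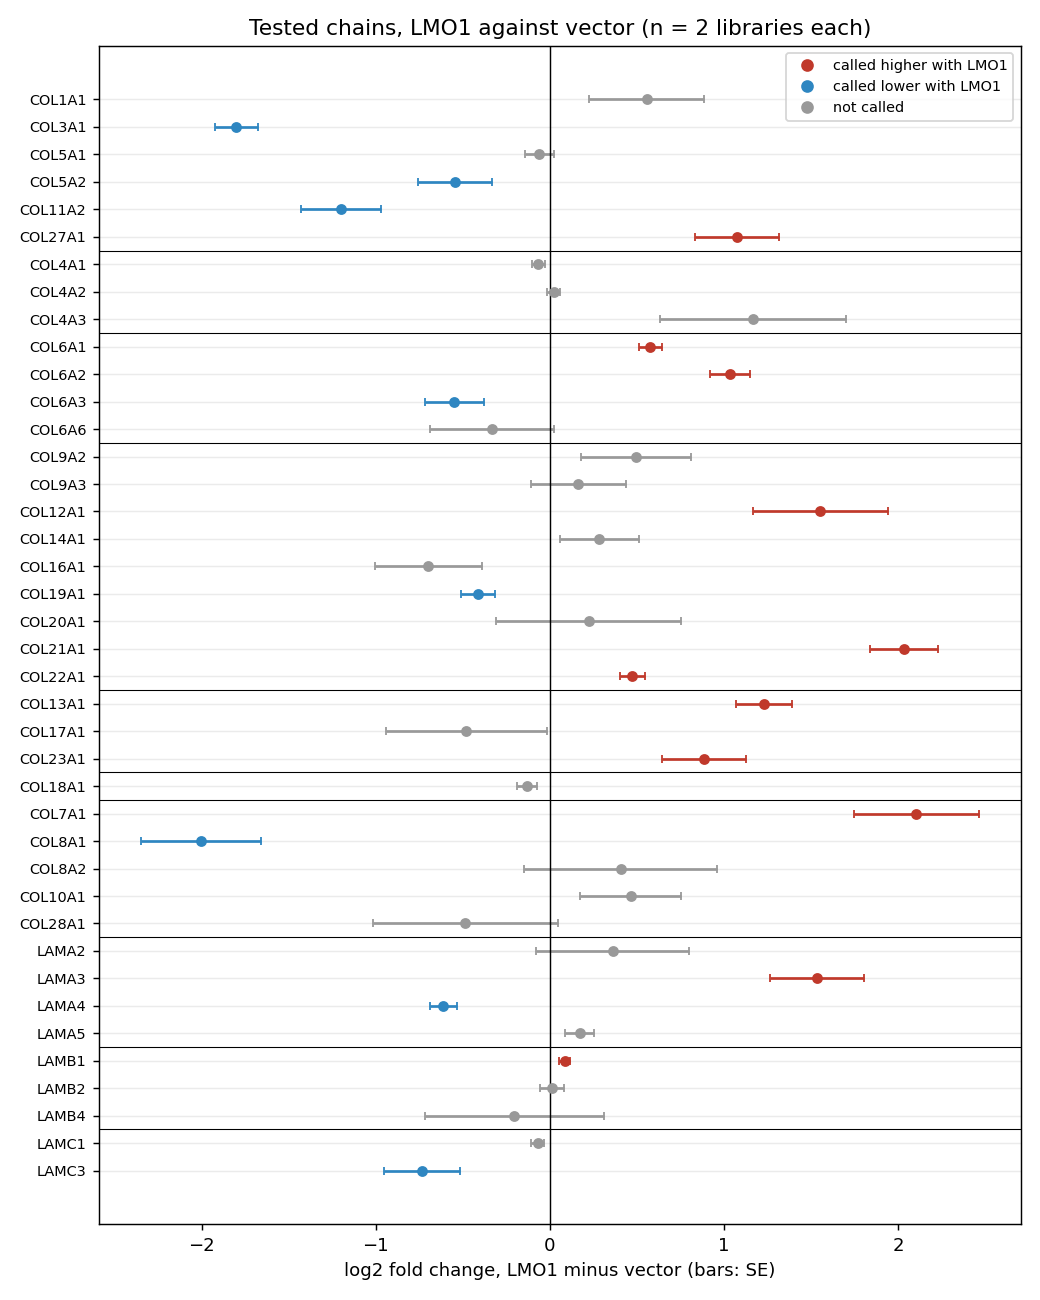
Log2 fold change of 40 of the 41 tested chains, LMO1 minus vector, with its standard error from edgeR (n = 2 libraries in each group); red points were called higher, blue lower and grey not called, and lines separate the chain classes. COL7A1 (2.10) and COL21A1 (2.03) lie farthest right, COL8A1 (-2.0) and COL3A1 (-1.80) farthest left, and the abundant COL4A1, COL4A2 and LAMC1 lie near 0.

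The abundant basement membrane chains differed by little between the groups. COL4A1 was at 185 and 174 CPM with LMO1 and at 182 and 194 CPM with vector, and the groups overlapped (log2 fold change -0.07, SE 0.0396, edgeR adjusted p = 0.217). COL4A2 was at 256 and 234 CPM against 244 and 240 CPM, also with overlap (log2 0.02, SE 0.0367, edgeR adjusted p = 0.710). The head-to-head partners had a count ratio of COL4A2 to COL4A1 of 1.35 to 1.38 with LMO1 and 1.24 to 1.34 with vector. COL4A3 was low, with 22 and 16 counts with LMO1 and 9 and 10 with vector (log2 1.17, SE 0.534, edgeR adjusted p = 0.0931), while COL4A4 had no count in any of the 5 BE2C libraries. LAMC1 was at 258 and 239 CPM against 254 and 269 CPM (log2 -0.07, SE 0.0364, edgeR adjusted p = 0.149), and only with LMO1 replicate 1 left out was it called lower (log2 -0.13, edgeR adjusted p = 0.0226). LAMB1 was at 398 and 387 CPM against 375 and 368 CPM, a called difference of 0.08 on the log2 scale (SE 0.0303, edgeR adjusted p = 0.0284). LAMB1 no longer passed when LMO1 replicate 1 (edgeR adjusted p = 0.122), vector replicate 1 (0.0947) or vector replicate 2 (0.294) was left out, when parental cells and Kelly joined the fit (0.05003), or under DESeq2 (0.0634). LAMB2, the beta chain of synaptic and glomerular laminins, was at 50.2 and 49.8 CPM against 51.9 and 47.8 CPM (edgeR adjusted p = 0.916). COL18A1 was at 72.2 and 67.7 CPM against 79.4 and 74.3 CPM (log2 -0.13, SE 0.0572, edgeR adjusted p = 0.0818), and passed as lower when parental cells and Kelly joined the fit (edgeR adjusted p = 0.0429).

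Laminin alpha chains, which carry the integrin-binding end of the trimer, moved in both directions. LAMA4, an alpha chain of vessel and nerve laminins, was at 28.2 and 29.2 CPM with LMO1 and at 45.2 and 43.1 CPM with vector, and fell by 0.61 on the log2 scale (SE 0.0775, edgeR adjusted p = 1.14e-08). LAMA3, the alpha chain of the epithelial anchoring laminin, was at 4.66 and 4.40 CPM against 1.74 and 1.41 CPM, and rose by 1.53 (SE 0.27, edgeR adjusted p = 1.15e-05). Its usual beta partner LAMB3 was near the floor, at 0.262 and 0.176 CPM with LMO1 and 0.0916 and 0.0805 CPM with vector. LAMA5, the alpha chain of most adult basement membranes, was at 32.7 and 30.5 CPM against 27.1 and 29.2 CPM (log2 0.17, SE 0.0846, edgeR adjusted p = 0.124). LAMA2, the alpha chain of muscle and Schwann cell basement membranes, was at 1.10 and 1.23 CPM against 0.642 and 1.17 CPM (edgeR adjusted p = 0.582). LAMC3, a gamma chain with restricted expression, was at 2.78 and 3.57 CPM against 5.32 and 5.35 CPM, and fell by 0.73 (SE 0.219, edgeR adjusted p = 0.00793). Without LMO1 replicate 1 the LAMC3 value was -0.58 (edgeR adjusted p = 0.117).

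Type VI collagen chains moved in both directions. COL6A1 was at 64.4 and 62.4 CPM with LMO1 and at 44.9 and 40.5 CPM with vector, and rose by 0.58 on the log2 scale (SE 0.0671, edgeR adjusted p = 1.3e-09). COL6A2, its neighbour on chromosome 21, was at 28.0 and 21.9 CPM against 12.7 and 11.7 CPM, and rose by 1.03 (SE 0.115, edgeR adjusted p = 4.47e-10). COL6A3, the large chain that joins both in the trimer, was at 5.71 and 5.68 CPM against 9.16 and 7.61 CPM, and fell by 0.55 (SE 0.169, edgeR adjusted p = 0.0106). The ratio of COL6A3 to COL6A2 per kilobase was 0.0656 and 0.0834 with LMO1 and 0.232 and 0.209 with vector, so COL6A3 was the scarcest of the 3 chains in both groups. The COL6A3 call was lost without LMO1 replicate 1 (edgeR adjusted p = 0.0579), LMO1 replicate 2 (0.0717) or vector replicate 1 (0.160). COL6A6, an alternative to COL6A3, was at 0.995 and 1.80 CPM against 1.74 and 1.85 CPM (edgeR adjusted p = 0.528).

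Of the 6 fibrillar chains tested, 3 were lower and 1 was higher, where 15.1% of all genes tested were lower and 15.9% higher. COL3A1, the chain of reticular fibres, was at 7.75 and 6.69 CPM with LMO1 and at 24.5 and 25.8 CPM with vector. It fell by 1.80 on the log2 scale (SE 0.122, edgeR adjusted p = 8.31e-17), the lowest adjusted p of any tested chain. COL5A2, a type V chain and the neighbour of COL3A1 on chromosome 2, was at 3.67 and 4.05 CPM against 6.60 and 4.79 CPM, and fell by 0.54 (SE 0.211, edgeR adjusted p = 0.0443). The COL5A2 call was lost in 6 of 11 alternatives, among them leaving out LMO1 replicate 1, LMO1 replicate 2 or vector replicate 1 (adjusted p = 0.208, 0.118 and 0.461), and its adjusted p ran from 0.0138 to 0.461. COL11A2, a minor chain of cartilage-type fibres, was at 2.67 and 2.20 CPM against 5.96 and 5.27 CPM, and fell by 1.20 (SE 0.23, edgeR adjusted p = 4.47e-05). COL27A1, a fibrillar collagen of developing cartilage, rose by 1.07 (SE 0.242, edgeR adjusted p = 0.00047), from 2.47 and 2.09 CPM with vector to 4.56 and 4.97 CPM. COL5A1 was at 33.4 and 32.4 CPM against 32.1 and 36.6 CPM (edgeR adjusted p = 0.626). COL1A1, the main chain of type I collagen, was at 1.94 and 2.64 CPM against 1.92 and 1.25 CPM (edgeR adjusted p = 0.211), and COL1A2, which pairs with it, had 0 to 2 counts in each of the 6 libraries and was not tested.

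Among the FACIT collagens 3 of 9 tested chains were higher and 1 lower, where 15.9% of all genes tested were higher and 15.1% lower. COL21A1 was at 12.4 and 9.64 CPM with LMO1 and at 2.11 and 3.22 CPM with vector, and rose by 2.03 on the log2 scale (SE 0.196, edgeR adjusted p = 6.82e-12). COL12A1, which coats fibres in tendon and ligament, was at 2.09 and 2.29 CPM against 0.642 and 0.845 CPM, and rose by 1.55 (SE 0.385, edgeR adjusted p = 0.0014). COL22A1, a collagen of tissue junctions, was the most abundant FACIT chain per kilobase in BE2C but not in Kelly. It was at 53.2 and 47.5 CPM against 35.9 and 36.7 CPM, and rose by 0.47 (SE 0.0734, edgeR adjusted p = 1.06e-06). COL19A1, a collagen of basement membrane zones, was at 17.4 and 18.2 CPM against 24.2 and 23.5 CPM, and fell by 0.41 (SE 0.0999, edgeR adjusted p = 0.00104). The 5 tested FACIT chains without a call were COL9A2, COL9A3, COL14A1, COL16A1 and COL20A1, with means of 0.586 to 3.49 CPM with vector.

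Of the 3 transmembrane collagens tested 2 were higher and 0 lower, beside the same shares of 15.9% and 15.1% over all genes tested. COL13A1, known from neuromuscular junctions, was at 11.4 and 12.1 CPM with LMO1 and at 4.58 and 5.47 CPM with vector, and rose by 1.23 on the log2 scale (SE 0.159, edgeR adjusted p = 2.04e-08). COL23A1 was at 4.56 and 4.36 CPM against 2.38 and 2.46 CPM, and rose by 0.88 (SE 0.242, edgeR adjusted p = 0.00382). COL17A1, the hemidesmosome collagen, was at 0.943 and 0.572 CPM against 1.01 and 1.09 CPM (edgeR adjusted p = 0.473). The remaining called chains were at opposite ends of the range. COL7A1, the anchoring fibril collagen, was at 2.46 and 3.96 CPM with LMO1 and at 0.917 and 0.604 CPM with vector, and rose by 2.10 (SE 0.359, edgeR adjusted p = 6.62e-06). COL8A1, a short-chain collagen of vessel walls, was at 0.628 and 0.968 CPM against 3.30 and 3.26 CPM, and fell by 2.0 (SE 0.343, edgeR adjusted p = 7.1e-06). COL10A1, the collagen of hypertrophic cartilage, was at 2.67 and 3.04 CPM against 2.25 and 1.93 CPM (edgeR adjusted p = 0.238). COL8A2, COL28A1 and LAMB4 were also tested without a call, with means of 0.468 to 0.763 CPM with vector. The 15 chains too low to be tested were COL1A2, COL2A1, COL5A3, COL11A1, COL24A1, COL4A4, COL4A5, COL4A6, COL6A5, COL9A1, COL15A1, COL25A1, COL26A1, LAMA1 and LAMB3.

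RefSeq places several pairs of these chains next to each other, with no other coding gene between. In 2 pairs both chains were called, COL6A1 with COL6A2 (both higher) and COL3A1 with COL5A2 (both lower). The COL5A2 call was lost in 6 of 11 alternatives. How often other neighbouring genes are called together is not given, so shared control of neighbours was not tested. In LAMB1 and LAMB4 only the first was called, COL4A1 with COL4A2 had no call, and in 4 pairs at least 1 partner was not tested.

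Genes that fold, cut and cross-link collagen were read in the same fit. Of 34 such genes 29 were tested, 13 were higher and 3 lower with LMO1, where 15.9% of all genes tested were higher and 15.1% lower. Their median log2 fold change was 0.12, beside 0.00 over all genes tested. P4HA1, a prolyl hydroxylase subunit, was at 112 and 113 CPM with LMO1 and at 50.6 and 53.0 CPM with vector, and rose by 1.13 on the log2 scale (SE 0.054, edgeR adjusted p = 2.4e-22). PLOD2, a lysyl hydroxylase, was at 18.0 and 18.7 CPM against 4.63 and 3.78 CPM, and rose by 2.14 (SE 0.149, edgeR adjusted p = 2.3e-16). In both genes the groups lay far apart relative to their spread. ADAMTS3, a protease that removes the amino-terminal propeptide, rose by 0.62 on the log2 scale (SE 0.0562, edgeR adjusted p = 1.3e-12), and SERPINH1, the collagen chaperone, by 0.33 (SE 0.0407, edgeR adjusted p = 4.39e-09). The 3 lower genes were CRTAP and PPIB, both of the prolyl 3-hydroxylation complex, at -0.17 and -0.18, and FKBP14, a prolyl isomerase, at -0.31. Without LMO1 replicate 1 or LMO1 replicate 2 only 1 of these genes was lower.

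Basement membrane partners and receptors gave 11 higher and 1 lower of 25 tested, against the same shares of 15.9% and 15.1% over all genes. Their median log2 fold change was 0.16, beside 0.00 over all genes tested. ITGA2, a collagen-binding integrin chain, rose by 2.0 (SE 0.167, edgeR adjusted p = 8.31e-14), ITGA1, another, by 0.42 (SE 0.0455, edgeR adjusted p = 1.44e-10) and SDC1, a heparan sulfate proteoglycan, by 0.66 (SE 0.0623, edgeR adjusted p = 2.95e-12). ITGA3, of a laminin receptor, was at 8.90 and 9.29 CPM with LMO1 and at 4.31 and 3.66 CPM with vector (log2 1.20, SE 0.179, edgeR adjusted p = 4.7e-07). DDR1, a collagen receptor kinase, was lower by a log2 value of -0.21 (edgeR adjusted p = 0.0462), and no gene of the list was lower without vector replicate 1 or vector replicate 2. The number higher was 7 without vector replicate 1 and 7 with DESeq2. NID1, which links laminin to type IV collagen, was at 2.41 and 1.98 CPM against 0.733 and 0.563 CPM, and rose by 1.76 (SE 0.401, edgeR adjusted p = 0.000525). HSPG2, the perlecan gene, was at 6.70 and 6.16 CPM against 6.97 and 6.28 CPM (edgeR adjusted p = 0.905).

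The parental BE2C library placed the vector control. The parental and Kelly totals were 48663459 and 59512958 counts, against 18737591 to 25070942 in the 4 modified libraries. Their sample numbers also stand apart from those of the modified libraries. A difference between library sets cannot be told apart from one between parental or Kelly cells and modified cells. Since 1 parental library exists, no p-value is given, and the 95% intervals of count ratios (exact, conditional binomial) hold counting error alone. Of 36 chains with at least 1 CPM (TMM-scaled, as in all that follows) on either side, 8 (22.2%) were at least 2-fold higher in the parental library than in the vector mean and 6 (16.7%) at least 2-fold lower. Over all genes these shares were 9.59% and 3.77%. Passing through 1 side alone was enough, as for COL7A1 (vector mean 0.760 CPM) and COL8A1 (0.209 CPM in parental cells). The direction of such a chain is set by the minimum, so the counts describe the chains that passed. The 2-fold counts were taken with 0.5 CPM added to both sides, while the ratios printed below have nothing added. COL13A1 (ratio 2.02) and COL17A1 (3.58-fold lower) are therefore not among the chains counted. Neither parental nor vector cells had added LMO1. LAMA5 was at 132 CPM in parental cells and at 27.1 and 29.2 CPM with vector, a ratio of 4.67 (4.40 to 4.96), and LAMA4 was at 6.24 CPM against 45.2 and 43.1 CPM, 7.07-fold lower. COL5A1 was at 72.1 CPM against a vector mean of 34.4 CPM and COL1A1 at 7.60 against 1.59 CPM, ratios of 2.09 (1.97 to 2.22) and 4.86 (3.77 to 6.34). The others at least 2-fold higher were COL27A1, COL6A3, COL12A1, COL20A1 and COL7A1, and those lower were COL3A1, COL16A1, COL19A1, COL8A1 and COL10A1. LAMB1 (381 and 372 CPM), LAMC1 (268 and 262 CPM) and COL4A2 (261 and 242 CPM) had parental to vector ratios of 1.03, 1.02 and 1.08.

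Several chains called with LMO1 were at a parental level unlike that of vector, and both comparisons share the vector libraries. The limit on library sets given for parental cells holds here too. COL3A1 was at 9.67 CPM in parental cells, nearer to the LMO1 values of 7.75 and 6.69 CPM than to the vector values of 24.5 and 25.8 CPM. COL12A1 was at 3.96 CPM in parental cells, above the 2.09 and 2.29 CPM with LMO1. COL7A1 was at 3.66 CPM there, between the LMO1 libraries. COL8A1 was at 0.209 CPM, below both LMO1 values, and COL13A1 at 10.2 CPM, close below them. COL6A1 was at 73.7 CPM and COL27A1 at 5.42 CPM, above both LMO1 values, which were above vector. LAMA4 was at 6.24 CPM and COL19A1 at 11.5 CPM, below both LMO1 values, which were below vector. COL21A1 was at 2.32 CPM, within the vector range of 2.11 to 3.22 CPM. COL22A1 was at 23.9 CPM and COL23A1 at 1.63 CPM, both below the vector values where LMO1 was above them. COL6A3 was at 19.4 CPM, above the vector values where LMO1 was below them. Of the other called chains, COL6A2 (16.2 CPM), LAMA3 (2.89 CPM), COL11A2 (3.96 CPM), LAMC3 (3.89 CPM) and LAMB1 (381 CPM) lay between the groups. COL5A2 was at 3.73 CPM, between the LMO1 libraries. GC content of the transcript had a Spearman correlation of 0.26 with the parental to vector log2 ratio over the 36 chains and of -0.03 over 12360 genes. For Kelly to parental it was 0.17 over 43 chains and -0.06 over 12935 genes. For LMO1 to vector it was 0.11 over 41 chains and -0.03 over 12983 genes. These are descriptions over genes that share the same libraries.

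Kelly, the line with more LMO1 RNA, was compared with parental BE2C, with 1 library on each side and no test. Of 43 chains with at least 1 CPM on either side, 22 (51.2%) were at least 2-fold higher in Kelly and 9 (20.9%) at least 2-fold lower, where all genes gave 17.5% and 14.6%. The median log2 ratio of these chains was 1.05, beside -0.01 over all genes. A chain could pass the minimum through 1 line alone, such as LAMA1 (0.167 CPM in parental cells) or COL12A1 (0.101 CPM in Kelly). The direction of such a chain is set by the minimum. These counts and the median therefore describe the chains that passed, and the same minimum applied to all genes. The chains higher were 18 collagens and 4 laminins, and those lower 8 collagens and 1 laminin. These 2-fold counts again have 0.5 CPM added to both sides. Without it COL4A3 had a ratio of 3.16 and LAMA2 was 3.15-fold lower, and neither is counted. By total count 7 chains reached 1 CPM in Kelly and in no BE2C library, namely LAMA1, COL2A1, COL9A1, COL8A2, COL4A4, COL11A1 and LAMB3, and 8 did so in a BE2C library and not in Kelly. LMO1 level and cell line cannot be told apart in this comparison.

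LAMA1, the alpha chain of the embryonic laminin, had 7121 counts in Kelly (120 CPM), 8 in parental cells and 0 in each of the 4 modified libraries, a Kelly to parental ratio of 714 (362 to 1654). Exons of 2 antisense genes share 4.37% and 1.15% of the LAMA1 transcript models, and the strand setting of the counting is not given in the sources used here. LAMA4 stood at 54.7 CPM in Kelly beside 6.24 CPM in the parental library, a ratio of 8.76 (7.78 to 9.90), but at 45.2 and 43.1 CPM with vector, so Kelly was closer to the vector libraries than these were to parental cells. LAMA5 was at 186 CPM against 132 CPM. Against these alpha chains LAMB1 stood at 257 CPM in Kelly beside 381 CPM in the parental library, LAMC1 at 188 and 268 CPM, LAMB2 at 85.4 and 53.9 CPM, and LAMC3 at 0.134 and 3.89 CPM. Per kilobase, LAMA1, LAMA4 and LAMA5 stood at 0.518, 0.350 and 0.681 of LAMC1 in Kelly, and at 0.000511, 0.0281 and 0.340 in parental cells.

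Type VI chains were higher in Kelly throughout. COL6A1 was at 257 CPM against 73.7 CPM, COL6A2 at 86.4 against 16.2 CPM, COL6A3 at 191 against 19.4 CPM and COL6A6 at 56.7 against 1.38 CPM, with ratios of 3.49 (3.36 to 3.62), 5.33 (4.94 to 5.76), 9.84 (9.20 to 10.5) and 41.0 (32.2 to 53.2). The ratio of COL6A3 to COL6A2 per kilobase was 0.710 in Kelly and 0.385 in parental cells. COL6A5, the neighbour of COL6A6, had 37 counts in Kelly and 4 in parental cells, and stayed below 1 CPM.

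Both chains of the most abundant type IV pair were lower in Kelly, by unequal amounts. COL4A1 stood at 41.7 CPM in Kelly beside 142 CPM in the parental library, 3.42-fold lower, and COL4A2 at 138 and 261 CPM, 1.89-fold lower. The count ratio of COL4A2 to COL4A1 was 3.31 in Kelly, 1.83 in parental cells and 1.24 to 1.38 in the 4 modified libraries, for starts that lie 127 bases apart in the windows shown above. At the second pair COL4A3 had 71 counts in Kelly and 18 in parental cells, while COL4A4 had 94 and 0, at least 25.1-fold higher in Kelly against a floor of 3 counts. COL4A3 alone was thus detected in BE2C and both partners in Kelly, all under 2 CPM. At the third pair COL4A5 had no count in any library and COL4A6 at most 5.

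Fibrillar and cartilage-type chains also differed between the lines. COL1A1 stood at 57.9 CPM in Kelly beside 7.60 CPM in the parental library, a ratio of 7.62 (6.84 to 8.52), while COL1A2 had 0 counts in Kelly and 2 in parental cells. COL2A1, the fibrillar collagen of cartilage, had 455 counts against 6, a ratio of 60.8 (27.7 to 167). COL9A1, a FACIT chain that coats type II fibres, had 417 counts against 0, at least 111-fold higher, and its partners COL9A2 and COL9A3 were at 3.54 and 4.10 CPM against 1.13 and 1.72 CPM. COL11A1, of the same fibres, had 67 counts against 8, and COL11A2 was at 2.58 against 3.96 CPM. COL5A2 was at 17.7 against 3.73 CPM, and COL3A1 at 3.44 against 9.67 CPM. COL18A1 was at 222 against 90.1 CPM, COL23A1 at 33.4 against 1.63 CPM, COL7A1 at 18.7 against 3.66 CPM and COL16A1 at 7.15 against 0.942 CPM. Lower in Kelly were COL22A1 (3.22 against 23.9 CPM), COL13A1 (2.01 against 10.2 CPM), COL12A1 (0.101 against 3.96 CPM), COL14A1 (0.0671 against 2.57 CPM), COL21A1 (0.101 against 2.32 CPM) and COL20A1 (0.218 against 2.60 CPM).

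**Figure D4:**
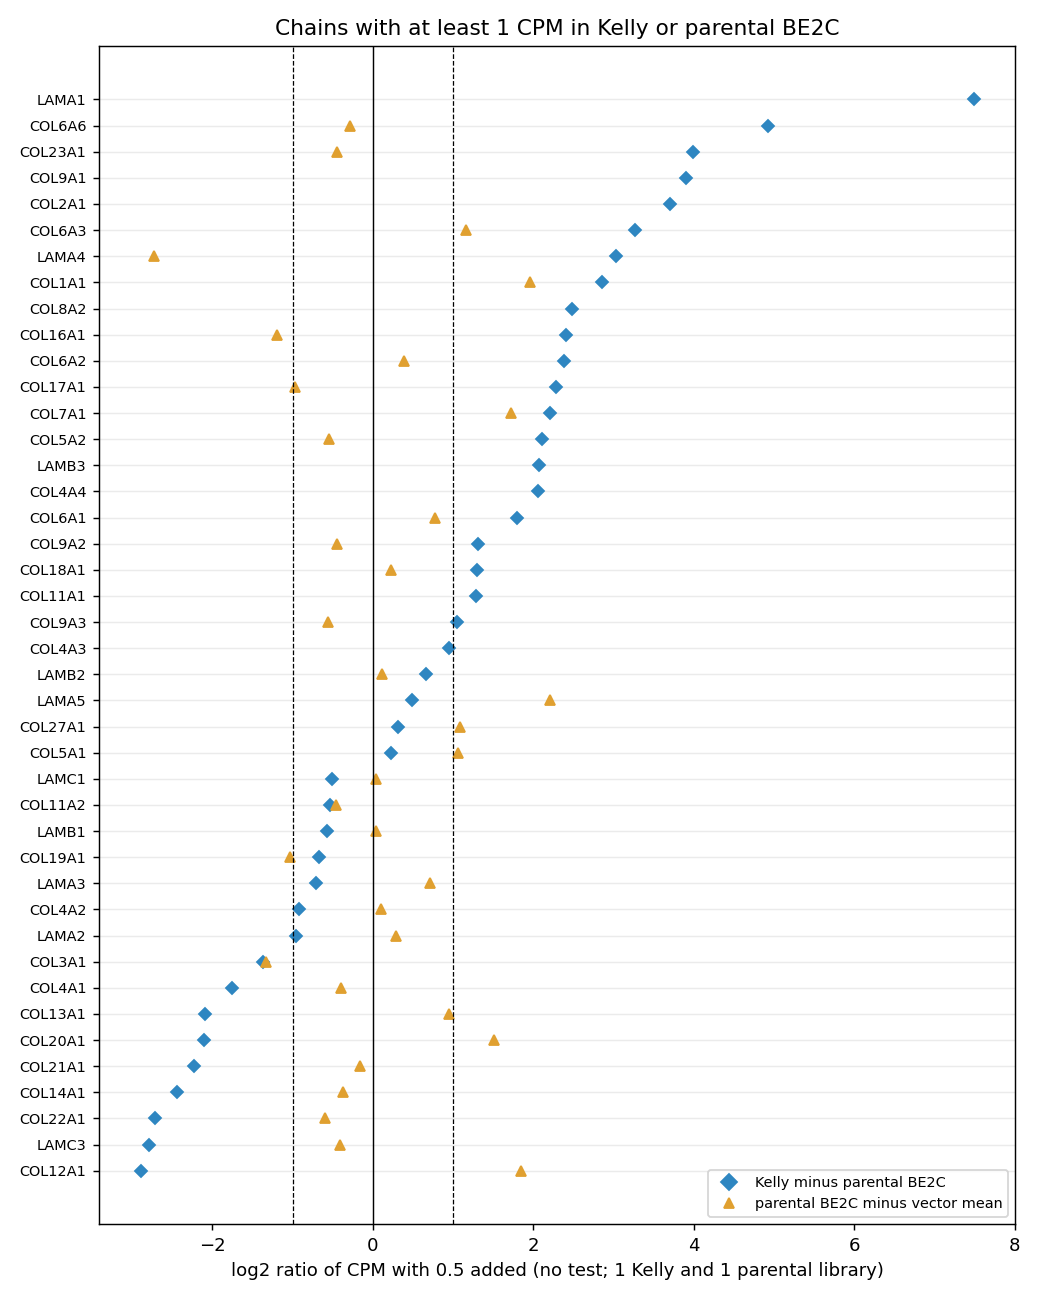
Log2 ratio of CPM (0.5 added) for 42 of the 43 chains with at least 1 CPM in Kelly or parental BE2C, ordered by the Kelly to parental ratio (blue diamonds), with the parental to vector mean ratio (yellow triangles, where at least 1 CPM on either side); dashed lines mark 2-fold. LAMA1 is at 7.49 and COL12A1 at -2.89 for Kelly, and LAMA4 and LAMA5 lie at -2.73 and 2.21 for parental cells against vector.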

How the data were processed

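RNA was measured in 2 LMO1, 2 vector, 1 parental BE2C and 1 Kelly library, prepared from column-purified RNA with a stranded kit, per the labels' protocols. The authors deposited raw counts of reads per gene symbol, without normalization. The submitters' processing notes name TopHat2 2.0.6, HTSeq and hg19. Annotation and strand setting are not given in the sources used here, so antisense reads may be included.

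The comparison of LMO1 with vector used edgeR 4.0.16 (R 4.3.3): TMM scaling, filterByExpr (15480 genes kept), a quasi-likelihood F test and Benjamini-Hochberg adjustment over all genes kept. Its p-values measure only how these libraries vary, and that spread may be technical. Replicates differed beyond sampling noise, with a chi-square over its degrees of freedom of 2.84 (LMO1) and 2.70 (vector). The procedure was tested on simulated data. Ratios of single libraries used TMM-scaled CPM, with 0.5 added for log2 values and a minimum of 1 CPM in either library. Levels between chains used the longest coding transcript of GENCODE 29. RefSeq (GRCh38.p14) promoter windows were matched by symbol for 41 of 56 chains. DESeq2 1.42.0, limma 3.58.1 (voom), other scalings and filters, a replicate block and left-out libraries were alternatives. The genes named were LMO1, every called chain, chains at least 2-fold different between the lines with at least 5 CPM, the 10 most abundant chains per kilobase, type IV pairs, laminin trimer partners, and up to 4 called genes in each direction of 2 pathway lists. Other genes were added after their values were seen. The members, lists and markers were chosen with earlier results of these data known. A single chain is not reported individually here.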

Additional observations from a re-analysis of the deposited data

How the results depend on the processing

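Of the 19 called chains, 15 kept their call in all 11 alternatives and 0 changed direction in any. The 4 that lost it in at least 1 were COL5A2, LAMB1, COL6A3 and LAMC3. With 1 library left out, 10 to 11 chains were higher and 6 to 8 lower, 12 to 13 maturation genes were higher and 1 to 3 lower, and 7 to 10 basement membrane partners and receptors were higher and 0 to 1 lower. Of the partners and receptors, 7 were higher and 0 lower with DESeq2, and 0 were lower with total-count scaling or all 6 libraries in the fit. With the replicate number as a block, 11 chains were higher and 8 lower, as were 13 and 3 maturation genes and 11 and 1 partners and receptors. The labels give only a shared number, and same-numbered libraries did not deviate together (r = -0.021 across 15480 genes). The share of all genes called is given for the main fit alone. Numbers of chains or listed genes called under an alternative, here and above, therefore have no background beside them. Whether they followed a change in the calls over all genes was not tested. At a minimum of 5 CPM, 14 chains were at least 2-fold higher and 4 lower in Kelly than in parental cells. At that minimum 5 were higher and 3 lower in parental cells than with vector. The shares of all genes at 5 CPM are not given, so these counts have no background beside them. Uncalled chains changed sign with 1 library left out: COL5A1 ran from -0.15 to 0.037, COL4A2 from -0.045 to 0.085, COL6A6 from -0.84 to 0.0094, COL9A3 from -0.18 to 0.46, COL20A1 from -0.21 to 0.91, LAMB2 from -0.050 to 0.070 and LAMB4 from -0.49 to 0.19. The ratio of COL4A2 to COL4A1 per kilobase in vector cells was 1.31, and 0.746 with union exon length, an alternative chosen after seeing the data. Where neither fewer libraries nor a stricter minimum accounts for a change by construction, the cause was not tested. Depth limits chains under 1 CPM.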
